A study of Mus musculus with 13 samples.

Results

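The genes described here encode the machinery of oxidative phosphorylation, that is the subunits of respiratory complexes I to IV and of ATP synthase (complex V) together with the Ndufaf assembly factors of complex I. They were chosen by name alone, as protein-coding mouse genes whose symbols begin with Nduf (a, b, c, s or v), Uqcr, Cox (families 4 to 8), Atp5 or mt-Nd, mt-Co, mt-Cytb or mt-Atp, or are Sdha, Sdhb, Sdhc or Sdhd. Of 41388 genes in the count files, 106 were members, 93 in nuclear chromosomes and 13 in the mitochondrial genome (mt- genes). The low-count filter left 97 of them, 90 nuclear and 7 mt-, among 15406 genes tested. The 13 libraries were bulk RNA-seq of EGFP-positive cells sorted from dorsal root ganglia of Ret-EGFP mice of strain C57BL/6, aged 3 months, in which EGFP marks cells that express the receptor gene Ret. The sample records give the genotype as Tg(Ret-EGFP)SJ, while the series text describes a knock-in of EGFP at the Ret locus in heterozygotes, so that all groups may carry 1 working copy of Ret. Ganglia came from levels L345 or L6S1 of female or male mice, which gave female L345 (A, B, C), female L6S1 (A, B, C), male L345 (A, B, C) and male L6S1 (A, D, E, F). Each library was a pool of 2 to 9 mice, and no EGFP-negative or wild-type sample was analysed here. Females and males were deposited separately, with male L6S1 E and F in a later deposit, so sex and deposit cannot be told apart.

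Complexes I to IV pass electrons from NADH and succinate to oxygen, complexes I, III and IV pump protons out of the mitochondrial matrix as they do so, and complex V uses the returning protons to make ATP. Most subunits are encoded in the nucleus, made in the cytosol and imported, while a small core of subunits of complexes I, III, IV and V is encoded and made inside mitochondria, so both genomes must be read for a working chain. Complex II is wholly nuclear and is also an enzyme of the citric acid cycle. Sensory neurons spend ATP on ion gradients and on transport along long axons, and their mitochondria supply much of it.

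Several members have near-identical copies elsewhere in the genome, and sequences of some are shown here. The part of these copies in the counts given below was not tested. The first 120 coding bases are given for mt-Nd3 (chrM:9459-9806) and for its copy Gm28438, an unprocessed pseudogene on the minus strand of chr1:24612775-24613119, with capitals at the base that differs. The same stretch of mt-Co2 (chrM:7013-7696) was identical in its copy Gm28661 (chr1:24614885-24615565), over all 681 coding bases. For the nuclear gene Cox7c (minus strand of chr13:86044816-86046904) and its processed pseudogene Gm10012 (plus strand of chr17:25901856-25902227), the 189 coding bases are given with capitals at the 2 that differ. All are 5′ to 3′ from GENCODE M21 transcripts (GRCm38).
mt-Nd3: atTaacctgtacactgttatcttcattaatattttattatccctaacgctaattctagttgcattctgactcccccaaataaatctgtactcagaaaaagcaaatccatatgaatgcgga
Gm28438: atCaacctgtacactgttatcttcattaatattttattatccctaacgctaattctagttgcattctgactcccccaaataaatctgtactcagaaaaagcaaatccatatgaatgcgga
mt-Co2: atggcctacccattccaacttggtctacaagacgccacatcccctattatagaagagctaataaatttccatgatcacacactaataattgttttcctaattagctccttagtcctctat
Cox7c: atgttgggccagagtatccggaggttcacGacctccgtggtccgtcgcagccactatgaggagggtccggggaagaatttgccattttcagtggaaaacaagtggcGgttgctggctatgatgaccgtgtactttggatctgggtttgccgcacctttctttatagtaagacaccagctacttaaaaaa
Gm10012: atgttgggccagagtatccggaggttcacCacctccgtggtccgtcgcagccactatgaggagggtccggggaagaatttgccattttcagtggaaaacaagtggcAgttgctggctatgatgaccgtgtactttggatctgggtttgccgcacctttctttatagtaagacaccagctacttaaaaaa

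Subunit c of ATP synthase, which forms the rotor ring, is encoded by 3 genes, Atp5g1 (minus strand of chr11:96068852-96075670), Atp5g2 (minus strand of chr15:102662864-102672352) and Atp5g3 (minus strand of chr2:73908447-73911326). Their last 225 coding bases, which hold the mature subunit, shared 168 bases (74.7%), and capitals mark the positions at which the 3 genes are not all alike. Outside that stretch the genes differ, yet the 438 coding bases of Atp5g2 were found without a difference in Gm10175, a processed pseudogene on chr7:23946646-23947290.
Atp5g1: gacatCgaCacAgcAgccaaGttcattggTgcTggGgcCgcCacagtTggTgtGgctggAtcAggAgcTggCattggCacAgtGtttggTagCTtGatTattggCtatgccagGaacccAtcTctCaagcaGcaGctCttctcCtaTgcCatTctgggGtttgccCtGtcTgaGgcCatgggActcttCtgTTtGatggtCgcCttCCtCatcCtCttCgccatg
Atp5g2: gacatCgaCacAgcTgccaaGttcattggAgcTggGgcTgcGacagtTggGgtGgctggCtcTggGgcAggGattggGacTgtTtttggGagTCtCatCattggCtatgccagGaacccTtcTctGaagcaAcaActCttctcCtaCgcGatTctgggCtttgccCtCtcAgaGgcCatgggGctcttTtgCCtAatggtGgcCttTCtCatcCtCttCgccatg
Atp5g3: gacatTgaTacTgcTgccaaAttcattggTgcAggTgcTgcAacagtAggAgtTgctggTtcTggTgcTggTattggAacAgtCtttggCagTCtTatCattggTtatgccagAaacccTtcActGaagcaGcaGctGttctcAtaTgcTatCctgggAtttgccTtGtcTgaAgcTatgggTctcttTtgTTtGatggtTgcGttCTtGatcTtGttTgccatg

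Since most nuclear members moved together between libraries, their promoters are shown for 3 genes with different patterns, as the 250 bases before the RefSeq start (GRCm38.p6). Cox6a1 (chr5:115348959-115349208, minus strand) followed the other nuclear members, Sdhd (chr9:50603850-50604099, minus strand) was high in one library and low in another, and Cox5a (chr9:57520982-57521231, plus strand) varied most of all tested members. Capitals mark matches on either strand to GCGC, any base, then TGCGC (10 bases), the site of NRF1, or to CCGGAAG, the core of the GABPA site, both factors known to activate respiratory genes. The search also used AAGATGGCG, a form of the YY1 site.
Cox6a1 promoter: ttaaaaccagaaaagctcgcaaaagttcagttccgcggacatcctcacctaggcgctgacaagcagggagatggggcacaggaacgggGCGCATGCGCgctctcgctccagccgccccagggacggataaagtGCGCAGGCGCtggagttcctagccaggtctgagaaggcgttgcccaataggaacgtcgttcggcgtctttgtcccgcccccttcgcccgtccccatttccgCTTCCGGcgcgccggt
Sdhd promoter: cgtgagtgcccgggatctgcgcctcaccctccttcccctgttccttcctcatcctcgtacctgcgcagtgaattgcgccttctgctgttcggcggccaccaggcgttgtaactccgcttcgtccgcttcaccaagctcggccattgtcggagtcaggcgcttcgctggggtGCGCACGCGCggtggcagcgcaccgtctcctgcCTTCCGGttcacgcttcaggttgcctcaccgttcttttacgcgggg
Cox5a promoter: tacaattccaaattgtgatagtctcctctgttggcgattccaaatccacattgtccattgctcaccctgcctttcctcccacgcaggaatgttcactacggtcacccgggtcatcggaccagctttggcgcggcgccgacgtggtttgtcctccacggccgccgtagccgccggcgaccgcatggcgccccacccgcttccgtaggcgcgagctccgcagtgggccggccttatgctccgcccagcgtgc

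In the full windows of 250 bases before to 50 after the start, 81 promoters of 76 nuclear members could be matched by symbol or synonym. The NRF1 motif was in 20 of the 81 (24.7%), against 4.60% of all 32851 promoters. GABPA matches were in 18 (22.2%, against 8.86%) and YY1 matches in 8 (9.88%, against 1.40%). The 32851 promoters were not matched to the members in GC content or expression level, so the difference may not be particular to these genes. These are descriptions of letters in a window and show no binding. Members with any of the 3 motifs and those with none lay at nearly the same level in the libraries in which the group was high: the median log2 difference was 1.62 for 38 members with a match and 1.54 for 37 without in male L6S1 D, and 1.43 and 1.42 in E.

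Libraries held 13030096 to 27011995 gene counts. Values below are CPM, counts scaled to a common library size (here the tested total times its TMM factor), and a library's difference for a gene is its log2(CPM + 0.5) minus the median over the 11 libraries other than male L6S1 D and E. Those libraries stood apart from the rest over all genes, on the first principal component (40.8% of variance), and their TMM factors were 0.925 and 0.796 against 1.01 to 1.05 elsewhere. Ret itself, the gene of the sort, was at 181 to 221 CPM in the 11 libraries, 154 in D and 87.3 in E. The neuronal list (Tubb3, Snap25, Prph, Isl1 and others, all 11 tested) summed to 11686 to 17666 CPM in the 11 libraries, 17798 in D and 14095 in E, with Tubb3 the largest part. Single neuronal genes did not all follow the sum: Pou4f1, a sensory neuron transcription factor, was at 636 to 1021 CPM in the 11 libraries, 412 in D and 264 in E, and Scn10a, a nociceptor sodium channel, at 281 to 681, 267 and 148. Both were below all 11 libraries in D and E, while 2 of the 11 genes, Uchl1 and Prph, were above all 11 libraries in both (background 17.8%). Uchl1 was at 953 to 2192 CPM in the 11 libraries, 3327 in D and 2440 in E, and Prph at 709 to 2141, 2176 and 2362. Avil was at 763 to 1733 CPM in the 11 libraries, 960.2 in D and 397 in E. The part of these differences in the results below was not tested.

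Oxidative phosphorylation genes were among the more abundant transcripts in these cells. On the per-length scale (RPKM, CPM per kilobase of the length in the files), the median over the 11 libraries was 104.7 for the 90 tested nuclear members and 351 for the 7 tested mt- genes, against 3.17 over all tested genes, and 84 of the 90 and all 7 were above that value. The highest member was mt-Cytb, the mitochondrially encoded core of complex III, at 3343 ± 1481 RPKM (SD, n = 13 libraries), followed by mt-Nd1 of complex I at 2445 ± 1259 and mt-Co1, the catalytic subunit of complex IV, at 2122 ± 559. Their ranges overlapped. Among nuclear members Ndufa4, a small subunit counted with complex I by name and found with complex IV, stood at 1817 ± 973 RPKM. In complex IV the leading genes were Cox6a1 at 1044 ± 645 and Cox6b1 at 930.2 ± 558 RPKM, both small regulatory or structural subunits. Complex V was led by Atp5mpl, a small membrane subunit, at 859 ± 463, ahead of Atp5a1, the alpha subunit of the catalytic head, at 309 ± 57.9 RPKM. Uqcr10 and Uqcr11, small subunits of complex III, had 482 ± 349 and 263 ± 171 RPKM. In complex I the next highest was Ndufb9, an accessory subunit, at 553 ± 366 RPKM. The 2 highest genes of complex II stood below these pairs, with Sdhb, its iron-sulfur subunit, at 232 ± 105 and Sdhd, a membrane anchor, at 201 ± 69.9 RPKM. These SDs include the high values of male L6S1 D and E.

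The nuclear members were high together in male L6S1 D and E and nearly level elsewhere. Their summed level was 22765, 15711 and 17205 CPM in female L345 A, B and C, 16218, 16264 and 18132 in female L6S1, and 18751, 16521 and 16468 in male L345. In male L6S1 it was 17972 in A, 46097 in D, 44668 in E and 21189 in F. D and E thus held the highest sums of all 13, with F and A inside the range of the other groups. As a share of all counts before any scaling, nuclear members took 4.26% in D and 3.55% in E, against 1.65% to 2.33% in the other 11. The median member was 1.61 log2 units above the 11 libraries in D and 1.40 in E, while the medians of the 11 libraries lay between -0.09 (female L345 B) and 0.44 (female L345 A). Above all 11 other libraries were 77 of the 90 nuclear members in D (background 23.3%), 81 in E (background 31.6%) and 71 in both (background 17.8%). Ret was lowest in the same libraries, D and E. In a bulk sample, more RNA of these genes per cell and more cells that are rich in it cannot be told apart.

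**Figure D1:**
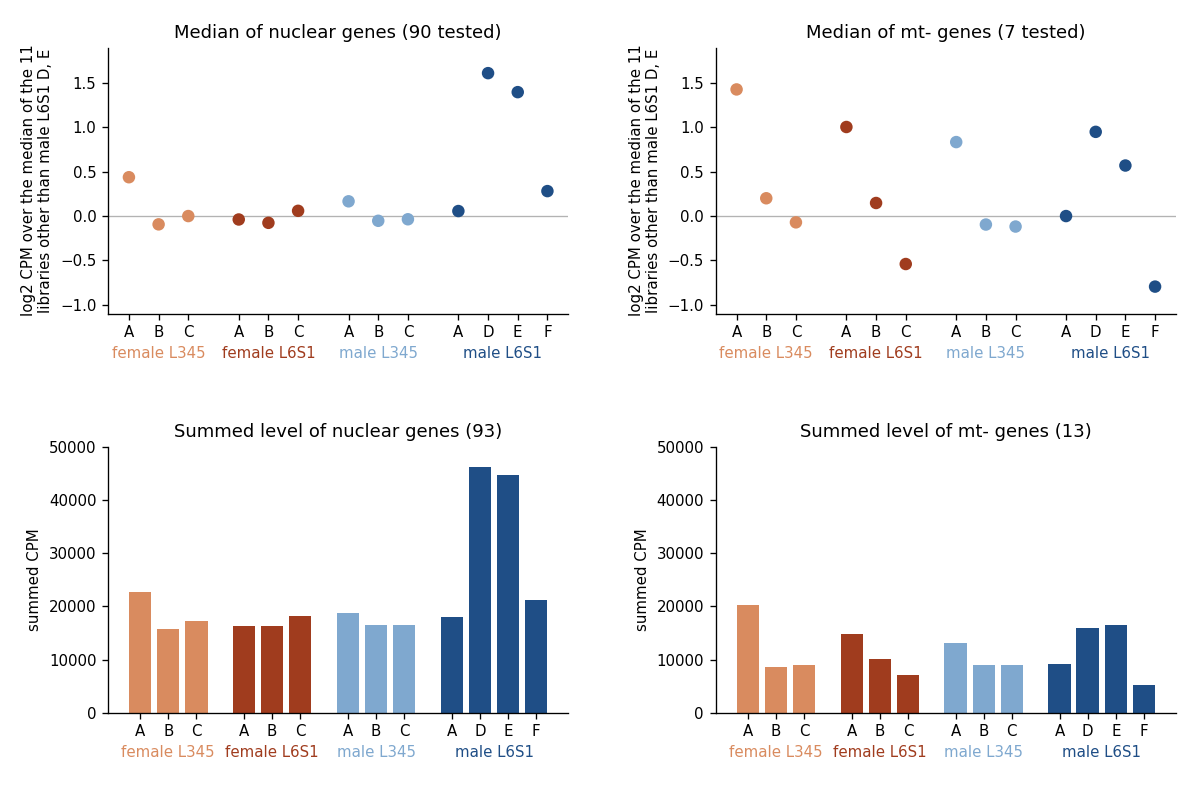
Oxidative phosphorylation genes by library. Upper panels plot the median log2 difference (y axis) of the 90 nuclear and 7 mt- genes tested, lower panels the summed CPM of all 93 nuclear and 13 mt- genes; each point or bar is 1 library, coloured by group and lettered on the x axis. Nuclear genes stand at 1.61 and 1.40 in male L6S1 D and E and between -0.09 and 0.44 elsewhere, while mt- genes are highest in female L345 A (1.43) and lowest in male L6S1 F (-0.80).

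Members of all 5 complexes were among them. The 38 complex I subunits had median differences of 1.75 in D and 1.57 in E, with 34 of 38 above all 11 libraries in both. For the 15 members of complex IV the medians were 1.75 and 1.56 (13 of 15), for the 8 of complex III 1.76 and 1.40 (5 of 8), and for the 17 of complex V 1.50 and 1.28 (13 of 17). Complex I assembly factors, which help build the enzyme and leave it, were less far from the rest at 0.80 and 1.22, with 4 of 8 above all 11 in both. The 4 genes of complex II had 1.09 and 0.44, with Sdhb and Sdhc high in both libraries. These counts describe 2 libraries, and the differences between complexes were not tested.

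Single genes show the size of the difference. Cox6a1 (chr5:115345642-115348981), the common isoform of a regulatory subunit of complex IV, had 740.0 (A), 479 (B) and 549 (C) CPM in female L345, 438 (A), 503 (B) and 539.6 (C) in female L6S1, 527 (A), 522 (B) and 548 (C) in male L345, and 517 (A), 1804 (D), 1664 (E) and 698 (F) in male L6S1. D and E were thus 3.43 and 3.16 times the median of the 11 libraries, and no other library came near them. Ndufs7 (chr10:80249121-80256794), a core iron-sulfur subunit of complex I next to the quinone site, had 196 (A), 142 (B) and 164 (C) CPM in female L345, 134 (A), 153 (B) and 168 (C) in female L6S1, 164 (A), 153 (B) and 162 (C) in male L345, and 169 (A), 603 (D), 580.0 (E) and 239 (F) in male L6S1. Here too D and E were highest, with F above A and all male L6S1 values above those of male L345. The largest ratios in E among nuclear members were those of Cox5a, Uqcrfs1, Ndufs3, Cox5b and Ndufb6. Ndufs3, another core subunit of complex I, had 40.5 to 71.3 CPM in the 11 libraries, 101 in D and 182 in E. For Cox5b, a nuclear subunit of complex IV, the values were 58.6 to 118, 271 in D and 294 in E. Ndufb6, an accessory subunit of complex I, had 116 to 171, 389.8 in D and 505 in E. In the heat map of members by library, nearly the whole nuclear part of these columns is red.

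**Figure D2:**
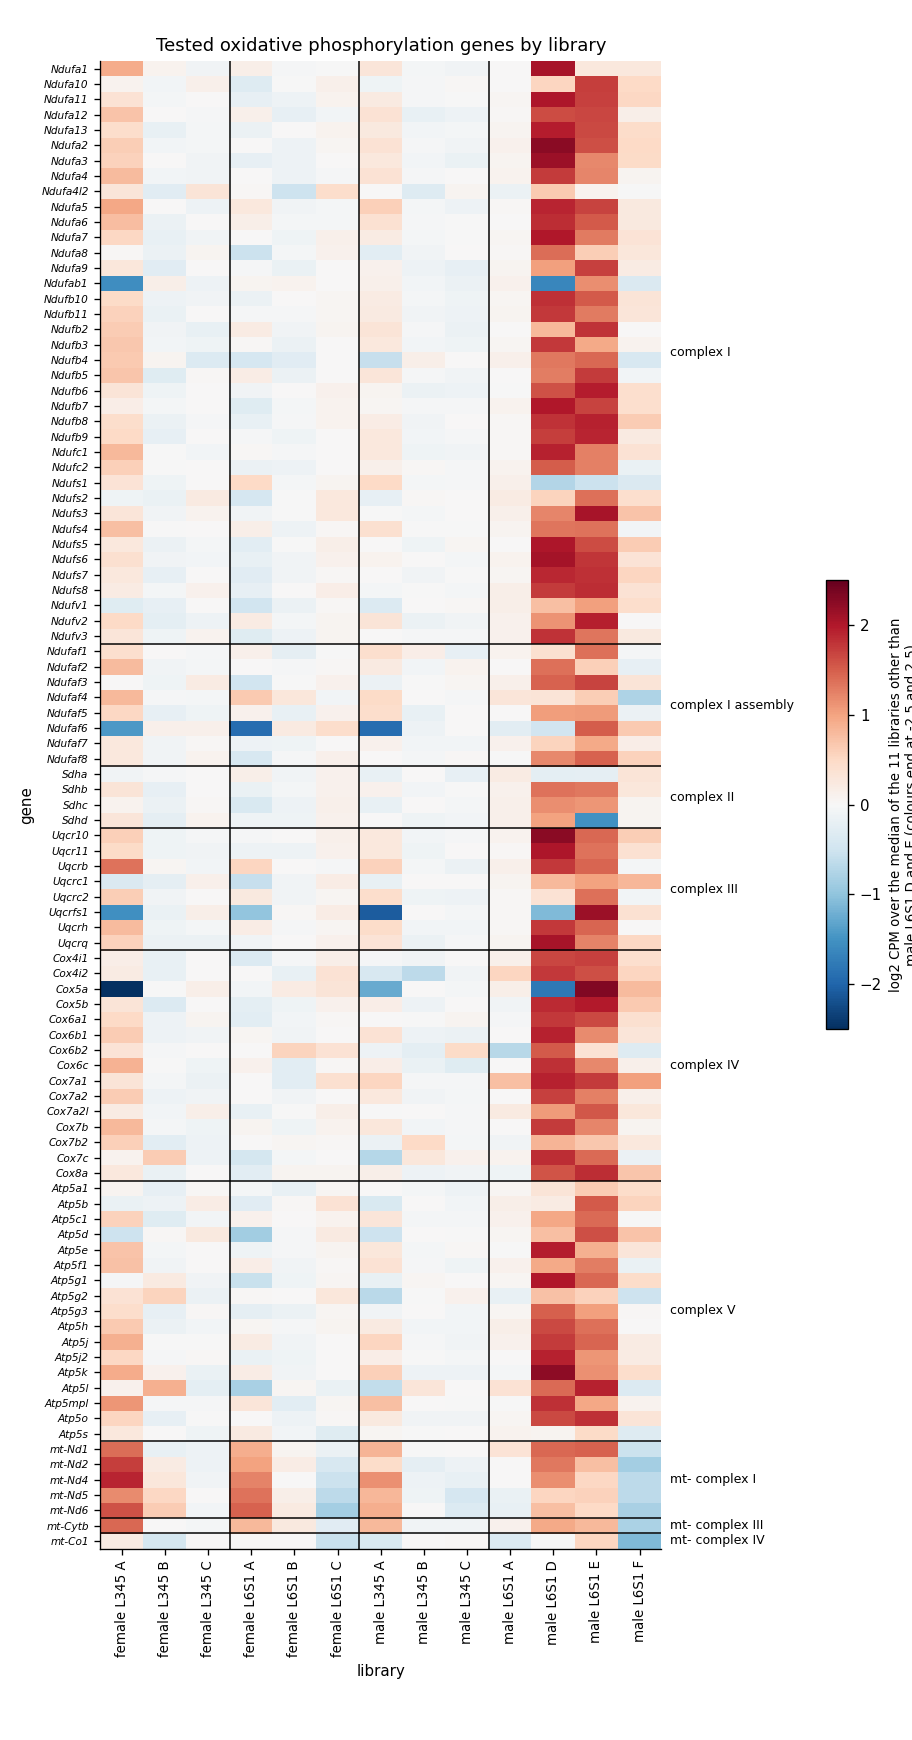
Log2 difference of each of the 97 tested members (rows, by genome and complex) in each of the 13 libraries (columns). Colour gives log2(CPM + 0.5) minus the median over the 11 libraries other than male L6S1 D and E, red for higher. The columns of D and E are red for most nuclear genes. Most mt- rows are red in female L345 A, female L6S1 A and male L345 A, and also in D and E.

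The first question of the design is whether L6S1 ganglia differ from L345 ganglia. Averaged over the sexes, no member passed an adjusted p of 0.05 in edgeR's quasi-likelihood test, where 0.448% of all tested genes did, and DESeq2 called 0 (background 1.01%). Of the members, 10 had an unadjusted p under 0.05 (background 8.39%). The nuclear members had a median log2 fold change (L6S1 over L345) of 0.38, with 88 of 90 above 0, against 0.02 and 51.7% over all genes. That median was 0.22 without male L6S1 D and -0.01 without D and E. In the paired fit, with the replicate block, it was -0.12. In that fit male L6S1 D, E and F and male L345 B and C have no partner and carry no weight. The value rests on female A, B and C and male A, paired by letter only. The 5 members of smallest p were Cox4i2, Cox7a1, Ndufs3, Ndufs5 and Cox4i1, and the first had a log2 fold change of 1.07 with SE 0.32 and an edgeR adjusted p of 0.267; the others had 0.76, 0.60, 0.63 and 0.56. The mt- median was -0.08 in the unpaired fit, and its sign there changed when single libraries were left out (0.14 without female L345 A, 0.10 without male L345 A, 0.03 without female L6S1 C and 0.04 without male L6S1 F). With the replicate block it was -0.36. The median mt- difference was lower at L6S1 in each of the 4 same-letter pairs, a pairing that is uncertain. It was 1.43 and 1.00 (L345, then L6S1) in female A and 0.20 and 0.15 in female B. In female C it was -0.07 and -0.54, and in male A 0.83 and 0.00.

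In females no member differed between the levels past the threshold (background 0.0195%), and 0 had an unadjusted p under 0.05 in edgeR (background 2.25%). DESeq2 called 0 (background 0.254%). The nuclear median was -0.16, with 12 of 90 above 0 (background 50.1%), and that of the mt- genes -0.29. The smallest p was that of Atp5l, a subunit at the interface of ATP synthase dimers, at -0.70 with SE 0.56 and an edgeR adjusted p of 1.00; this gene has few counts and shares 84.8% of its 50-base windows with other genes. Ndufb4, mt-Nd4, Atp5mpl and Cox7c followed with -0.42, -0.55, -0.40 and -0.44. Without female L345 A the nuclear median was 0.03 and the mt- median 0.31. The 3 female L345 libraries had a mean nuclear sum of 18560.5 ± 3717 CPM (SD, n = 3) and the 3 female L6S1 libraries 16871 ± 1092, a difference smaller than the spread.

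In males the nuclear members were higher at L6S1 in D and E. Their median log2 fold change was 0.96, with 89 of 90 above 0 (background 52.1%), and 64 of them had an unadjusted p under 0.05 where 25.3% of all genes did. None passed the adjusted threshold of 0.05 in edgeR, where 0.221% of genes did. DESeq2 called 29 of 91 nuclear members with any count (background 7.53%, over the 12812 genes that it gave an adjusted p). Once male L6S1 A was left out, edgeR called 57 of 90 (background 20.5%). All those called were higher. Without the low-count filter edgeR called 10 of 91 (background 0.981%), and these 10, among them Cox4i2, Cox5b, Ndufs3, Ndufs7 and Ndufs8, were called by DESeq2 and without A as well. For 22 of the 90 all 4 male L6S1 libraries were above all 3 of male L345 (background 9.2%), and for 0 the reverse held (background 9.49%). Without D and E the median was 0.15; without D alone it was 0.62.

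The male difference was led by a pair of complex IV isoforms. Cox4i2 (chr2:152754173-152765037), the isoform of subunit 4 known from lung and hypoxic tissue, had 1.49 (A), 1.01 (B) and 1.23 (C) CPM in female L345, 1.24 (A), 1.02 (B) and 1.73 (C) in female L6S1, 0.819 (A), 0.606 (B) and 1.12 (C) in male L345, and 2.00 (A), 5.38 (D), 4.80 (E) and 2.01 (F) in male L6S1. Its male L6S1 mean was 3.55 ± 1.80 CPM (SD, n = 4) against 0.848 ± 0.258 (n = 3) in male L345, a log2 fold change of 2.05 with SE 0.45 and an edgeR adjusted p of 0.0828. All 4 male L6S1 libraries were above all 3 of male L345, and without D and E the fold change was 1.23. Cox7a1, the heart and muscle isoform of subunit 7a, had 2.07 (A), 1.47 (B) and 1.36 (C) CPM in female L345, 1.54 (A), 1.20 (B) and 2.21 (C) in female L6S1, 2.46 (A), 1.49 (B) and 1.51 (C) in male L345, and 2.94 (A), 7.26 (D), 6.38 (E) and 3.68 (F) in male L6S1. Its log2 fold change was 1.49 with SE 0.39 and an edgeR adjusted p of 0.137, again with no overlap between the male groups. Next came complex I subunits, Ndufs7 at 1.32 with SE 0.38 and an edgeR adjusted p of 0.137, Ndufs3 at 1.24 with SE 0.36 and an edgeR adjusted p of 0.137 and Ndufs5 at 1.32 with SE 0.38 and an edgeR adjusted p of 0.137. Both Cox isoforms were scarce, at 2.39 ± 1.89 and 7.52 ± 5.37 RPKM (SD, n = 13).

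Whether the effect of level differed between the sexes was tested directly. The median difference (male effect minus female effect) was 1.16 for nuclear members and 0.45 for mt- genes; 48 members had an unadjusted p under 0.05 (background 11.7%) and 0 passed the adjusted threshold, as did 0% of all genes. DESeq2 also called 0 (background 0%). Above 0 were 88 of the 90 nuclear differences (background 52.3%). The smallest p belonged to Cox4i2, at 1.95 with SE 0.63 and an edgeR adjusted p of 0.409, followed by Atp5g1, Ndufs7, Ndufb8 and Ndufa3 with differences of 1.49, 1.46, 1.42 and 1.48. Without D and E the nuclear median was 0.34. With a gene length offset the nuclear median was 0.43 and the mt- median -0.41.

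Males and females were compared within each level, with the limit that sex and deposit cannot be told apart. At L345 no member passed (background 0.0325%), 0 had an unadjusted p under 0.05 (background 0.863%) and DESeq2 called 0 (background 0.0298%). The nuclear median, male over female, with 9 of 90 above 0 (background 49.6%), was -0.11 and the mt- median -0.44, or 0.06 and 0.10 without female L345 A. The smallest p values at L345 were those of mt-Nd2, Cox4i2, Atp5g2, mt-Nd6 and Cox6c, with log2 fold changes of -0.77, -0.55, -0.85, -0.59 and -0.40. At L6S1 the nuclear median was 1.01, with 87 of 90 above 0 (background 51.8%). None passed in edgeR (background 0.0844%), while 65 had an unadjusted p under 0.05 (background 26%). DESeq2 called 39 of 91 nuclear members with any count (background 10.9%, over the 11772 genes that it gave an adjusted p). The 91 include Cox4i2, which had no adjusted p there, so the bases differ. The edgeR fit without male L6S1 A called 63 of 90 (background 20.6%). Without the low-count filter it called 10 of 91 (background 0.732%), which DESeq2 and the fit without A called too. For 19 of 90 every male L6S1 library was above every female one (background 6.34%). Cox7a1 had the smallest p, at 1.60 with SE 0.39 and an edgeR adjusted p of 0.130, followed by Ndufs7, Atp5g1, Ndufa11 and Ndufb7 with log2 fold changes of 1.39, 1.40, 1.37 and 1.35. The median was 0.19 without D and E and 0.43 with a gene length offset. The comparisons of level and of sex share the male L6S1 libraries.

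The mt- genes followed the nuclear genes only in part. Male L6S1 D and E and female L345 A had the highest sums of both sets, and male L6S1 F was low for mt- genes only. Their summed level was 20165, 8572 and 8998 CPM in female L345 A, B and C, 14762, 10073 and 7098 in female L6S1, and 13042, 9011 and 9000.1 in male L345. Male L6S1 A, D, E and F had 9148, 15999, 16522 and 5197. The A library was highest in each of the first 3 groups, D and E were highest in male L6S1, and male L6S1 F was the lowest of all. The ratio of the nuclear to the mt- sum ran from 1.10 (female L6S1 A) and 1.13 (female L345 A) to 4.08 (male L6S1 F), with D and E at 2.88 and 2.70. Group means of the mt- sum were 12578 ± 6574 (SD, n = 3) in female L345, 10644 ± 3864 (n = 3) in female L6S1, 10351 ± 2330.5 (n = 3) in male L345 and 11716 ± 5494 (n = 4) in male L6S1. They differed by less than their spread.

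mt-Cytb (chrM:14145-15288) had 7699 (A), 2862 (B) and 2755 (C) CPM in female L345, 5025 (A), 3382 (B) and 2364 (C) in female L6S1, 5022 (A), 2678 (B) and 2675 (C) in male L345, and 3089 (A), 5526 (D), 4986 (E) and 1649 (F) in male L6S1. Its highest values were in female L345 A and male L6S1 D, and the groups overlapped. mt-Nd4, a proton-pumping subunit of complex I, had 1818 (A), 586 (B) and 455 (C) CPM in female L345, 1139 (A), 484 (B) and 333 (C) in female L6S1, 1074 (A), 444 (B) and 426 (C) in male L345, and 486 (A), 1089 (D), 689.6 (E) and 306 (F) in male L6S1, the widest fold range of the 3 described here. mt-Co1 (chrM:5328-6872) varied least, with 4058 (A), 2583 (B) and 3522 (C) CPM in female L345, 3564 (A), 3569.7 (B) and 2397 (C) in female L6S1, 2714 (A), 3546 (B) and 3614 (C) in male L345, and 2781 (A), 3505 (D), 5117 (E) and 1646 (F) in male L6S1, and its A libraries in female L6S1 and male L345 were not the highest of their groups. Of the other tested mt- genes, all of complex I, mt-Nd1 ranged over 1072 to 4361 CPM, mt-Nd2 over 199 to 1184, mt-Nd5 over 255 to 1034 and mt-Nd6 over 67.1 to 365. None of the 7 passed in any of the 6 comparisons, nor had any an unadjusted p under 0.05, and the lowest adjusted p in edgeR was 0.473. The mt- genes are poor in G and C (median 37.1% against 49.4% over all tested genes), and across 15314 genes the library difference correlated with GC content at r = -0.43 in female L345 A, -0.64 in female L6S1 A, -0.45 in male L345 A and 0.65 in male L6S1 F. In the other libraries r lay between -0.15 and 0.40. Its part in the mt- values was not tested.

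The other 6 mt- genes had almost no counts, although they lie between well counted genes on the same polycistronic transcript. Over all 13 libraries mt-Co2 had 6 counts, mt-Co3 4, mt-Atp6 3, mt-Nd4l 1, and mt-Atp8 and mt-Nd3 0, while mt-Cytb had 984682. Of their 50-base windows, 100% (mt-Co2), 99.9% (mt-Co3), 99.5% (mt-Atp6), 98.8% (mt-Nd4l) and 98.0% (mt-Nd3) also occur in the transcript of another annotated gene, chiefly a row of unprocessed pseudogenes on chr1 between 24611535 and 24616197, the copies printed above among them. For mt-Atp8 the share was 0%, and the gaps between those pseudogenes were not searched. mt-Co1 and mt-Nd4, with 51.1% and 62.2% shared, were well counted, and mt-Cytb, mt-Nd1 and mt-Nd6 shared none. mt-Nd6 lies on the opposite strand from the rest, and since strand use is not stated its reads and those of transcripts across from it cannot be told apart. The copies themselves had few counts: 19 for Gm28661, 29 for Gm28437, 15 for Gm29216, 17 for Gm10925 and 2 for Gm28439. The exception was Gm28438, the copy of mt-Nd3 with the single differing base, with 1086 counts, 27 to 191 a library. How reads that fit several places were counted is not given in the sources used here, so no level is given for these 6 genes, and the part of the copies in their counts was not tested.

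Low counts beside close copies were also seen for a few nuclear genes. Cox7c, a subunit of complex IV, had 3.50 (A), 5.32 (B) and 2.96 (C) CPM in female L345, 2.29 (A), 3.13 (B) and 3.26 (C) in female L6S1, 1.79 (A), 4.05 (B) and 3.55 (C) in male L345, and 3.52 (A), 12.97 (D), 9.54 (E) and 2.88 (F) in male L6S1, or 4.00 ± 2.81 RPKM, with 53.0% of windows shared and 54 counts in Gm10012. Atp5g2 had 1 to 22 counts a library and 0.309 ± 0.172 RPKM with all its windows shared, and Gm10175 had 0 to 48. Atp5l, with 84.8% shared, was at 7.49 ± 5.73 RPKM. Their levels, and those of Atp5g1 (66.0% shared, 4.83 ± 3.35 RPKM), are therefore uncertain, although each was higher in D and E than its median elsewhere. The RPKM of Atp5g1 is per its file length of 4912 bases, while its coding transcript has 596. Not every member with many shared windows was low: Atp5h, with 66.6% shared, stood at 94.7 ± 50.3 RPKM. Of 93 nuclear members, 45 shared no window with another gene, at a median of 118 RPKM, and the 27 that shared under 20% had a median of 131. The 19 that shared from 20% to under 80% had a median of 70.6, and the 2 above 80% stood at 0.252 and 5.24 RPKM (medians over the 11 libraries). Genes that overlap a member count here as well as its pseudogenes.

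**Figure D3:**
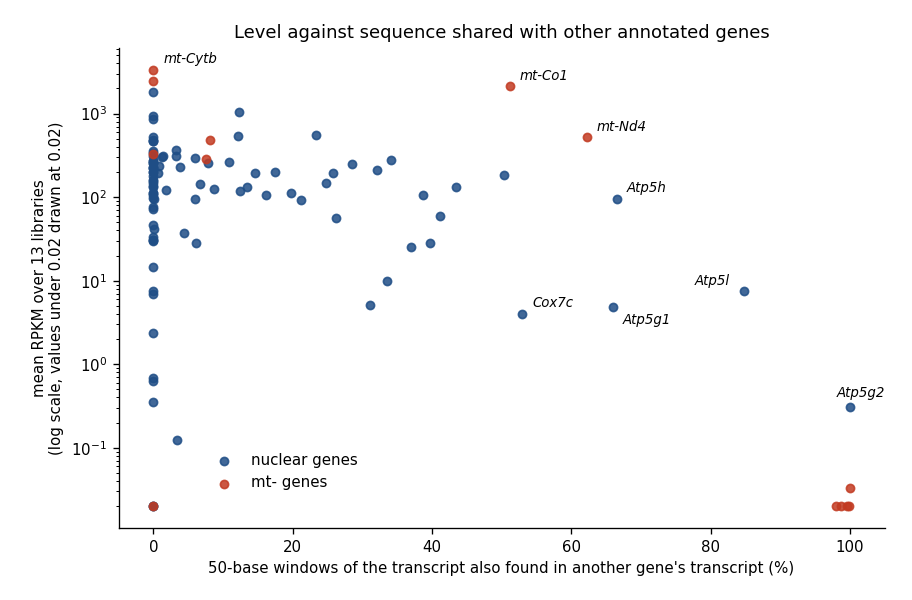
Mean RPKM over 13 libraries (y axis, log scale, values under 0.02 drawn at 0.02) against the percent of a member's 50-base windows that occur in another annotated gene's transcript (x axis); each point is 1 of the 106 genes, blue nuclear and red mt-. The mt- genes near 100% sharing sit at the bottom, as does mt-Atp8 at 0%, with Atp5g2 above them, while mt-Co1 and mt-Nd4 stay high at 51.1% and 62.2%.

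Tissue-specific isoforms were uneven. Of subunit 4 of complex IV, Cox4i1 had 536 ± 331 RPKM and Cox4i2 2.39 ± 1.89. Cox7a2, the common form of subunit 7a, had 519.9 ± 281, Cox7a2l, which takes part in joining complexes III and IV, 112 ± 51.8 and Cox7a1 7.52 ± 5.37. Cox6b2, the testis form, stood at 0.676 ± 0.529 against 930.2 ± 558 for Cox6b1, and Cox6a2, a heart and muscle form, had 22 counts in all and did not pass the filter. Cox8b and Cox8c had 0 counts in every library, while Cox8a had 466 ± 291 RPKM. For these genes at 0, the upper limit that 3 counts allow is 0.111 to 0.230 CPM by library, for counting error only. Ndufa4l2, a relative of Ndufa4 known from hypoxia, had 0.358 ± 0.200 RPKM. Of the subunit c genes only Atp5g3 was well counted, at 224 ± 106 RPKM. The closest copy of Atp5g1 was the processed pseudogene Gm10039, which held 61.2% of its windows.

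A few nuclear members broke with the rest. Cox5a (chr9:57521274-57532426), a nuclear subunit of complex IV, had 8.12 (A), 117 (B) and 130.0 (C) CPM in female L345, 112 (A), 135 (B) and 148 (C) in female L6S1, 48.8 (A), 117 (B) and 114 (C) in male L345, and 130.2 (A), 33.6 (D), 582 (E) and 203 (F) in male L6S1. E was 4.96 times the median of the 11 libraries and D only 0.29 times, and female L345 A and male L345 A were also low. Uqcrfs1 (chr13:30540308-30545362), the Rieske iron-sulfur protein of complex III, had 46.9 (A), 122 (B) and 153 (C) CPM in female L345, 68.9 (A), 141 (B) and 156 (C) in female L6S1, 32.2 (A), 137 (B) and 132 (C) in male L345, and 139 (A), 64.0 (D), 602 (E) and 179 (F) in male L6S1. Here D and the A libraries of female L345, female L6S1 and male L345 were low and E was high. Ndufab1, the mitochondrial acyl carrier protein, was at 11.8 CPM in female L345 A, 11.2 in D and 79.7 in E, against 27.4 to 39.1 in the rest. Ndufaf6, an assembly factor, was at 2.76, 1.85 and 1.86 CPM in those A libraries, 5.85 in D and 24.6 in E. These genes were picked after their values were seen, apart from Cox5a and Uqcrfs1, which the naming rule selects.

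The 5 lowest ratios in E were those of Sdhd, Ndufs1, Sdha, Ndufa4l2 and Ndufa1. Sdhd had 308 (A), 213 (B) and 265 (C) CPM in female L345, 231 (A), 231 (B) and 268 (C) in female L6S1, 249.9 (A), 231 (B) and 239 (C) in male L345, and 275 (A), 504 (D), 86.9 (E) and 263 (F) in male L6S1. It was the highest of all libraries in D and the lowest in E, while its partners Sdhb (359 to 517 CPM in the 11, 1056 in D and 1028 in E) and Sdhc (89.3 to 128, 262 in D and 249.6 in E) were high in both. Sdha, the catalytic flavoprotein of complex II, had 365 (A), 379 (B) and 389 (C) CPM in female L345, 428 (A), 361 (B) and 416 (C) in female L6S1, 341 (A), 386 (B) and 337 (C) in male L345, and 445 (A), 327 (D), 331 (E) and 484 (F) in male L6S1. Ndufs1 (chr1:63143596-63176833), the largest core subunit of complex I, had 284 (A), 208 (B) and 224 (C) CPM in female L345, 315 (A), 217 (B) and 236 (C) in female L6S1, 318 (A), 216 (B) and 219.9 (C) in male L345, and 243 (A), 134 (D), 155 (E) and 175 (F) in male L6S1. Sdha and Ndufs1 were the only members below all 11 other libraries in both D and E. The share of all tested genes below all 11 in both is not given here, so this count has no background beside it. Ndufa1, a small membrane subunit on the X chromosome, was at 461 in D and 131 in E, against 103 to 209 CPM in the 11 libraries.

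**Figure D4:**
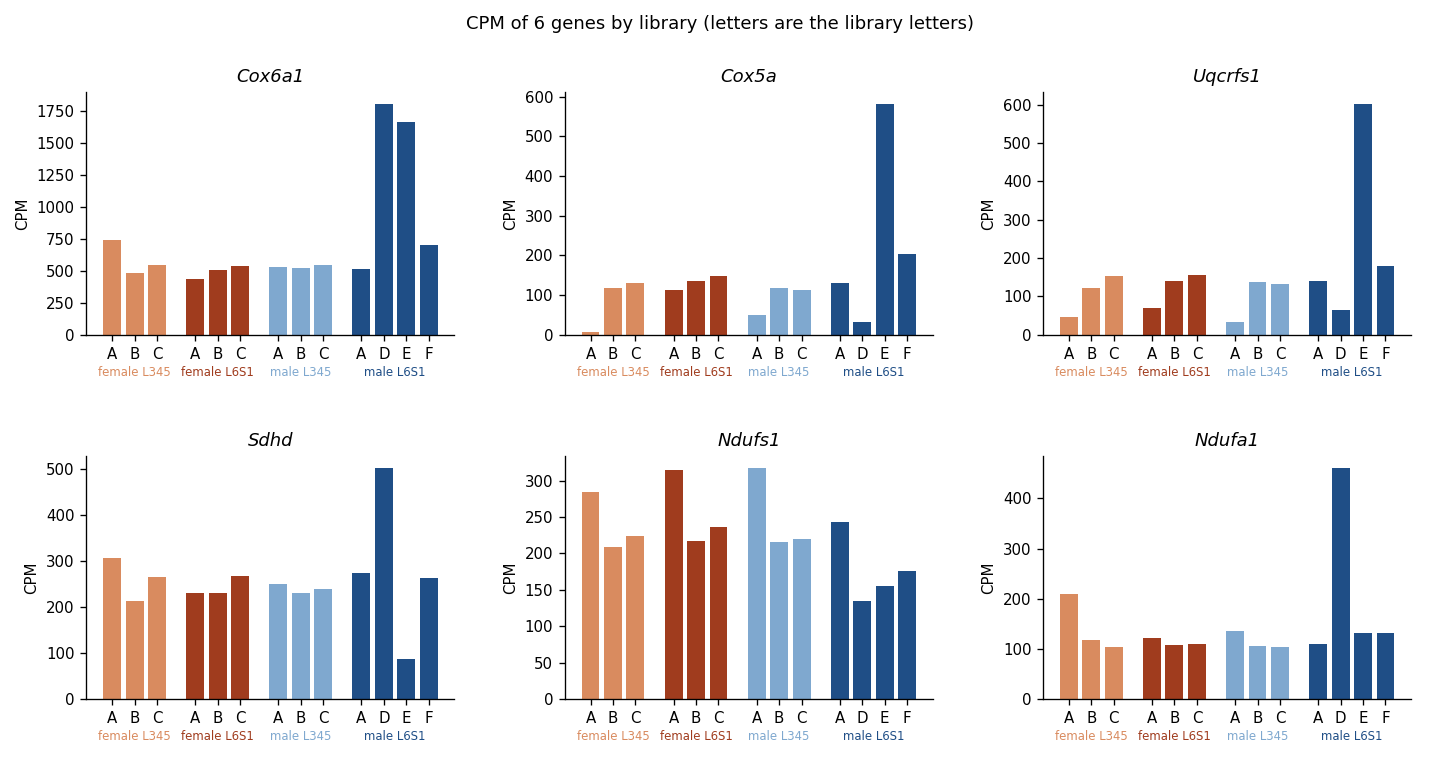
CPM (y axis) of 6 genes in each of the 13 libraries (x axis letters, colours by group); each bar is 1 library. Cox6a1 is high in male L6S1 D and E, Cox5a and Uqcrfs1 in E only, Sdhd and Ndufa1 in D only, and Ndufs1 is lowest in D and E.

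Other gene groups of the mitochondrion were read in the same way. Mitochondrial ribosomal proteins had median differences of 1.12 in D and 1.36 in E, with 59 of 75 genes above all 11 libraries in both. Cytosolic ribosomal proteins, which lie outside mitochondria, had 1.43 in D and 1.38 in E, with 67 of 81 genes above all 11 libraries in both. Protein import components, the Tom and Tim genes, had 1.09 in D and 1.18 in E, with 11 of 18 genes above all 11 libraries in both, and mitochondrial antioxidants such as Prdx5 and Gpx1 had 1.17 in D and 1.36 in E, with 5 of 7 genes above all 11 libraries in both. Assembly factors of complexes II to V had 0.66 in D and 0.91 in E, with 17 of 33 genes above all 11 libraries in both and 3 below. Complex I assembly factors outside the Ndufaf names had 0.24 in D and 0.42 in E, with 0 of 8 above all 11 libraries in both and 1 below. The background for the counts above all 11 libraries in both is 17.8% of all tested genes, and the share below all 11 is not given here.

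Other groups did not follow. Citric acid cycle enzymes had -0.31 in D and 0.07 in E, with 5 of 17 genes above all 11 libraries in both and 4 below. Cs, citrate synthase, was at 305 to 401 CPM in the 11 libraries, 199 in D and 74.5 in E. Mdh2, malate dehydrogenase, was by contrast at 707 to 1246, 1827 and 1501. Genes that copy and express mitochondrial DNA had -0.15 in D and 0.00 in E, with 5 of 24 genes above all 11 libraries in both and 3 below. Tfam, which packs that DNA, was at 15.3 to 27.9, 20.9 and 32.5 CPM. Regulators of mitochondrial biogenesis had -0.45 in D and -0.41 in E, with 2 of 14 genes above all 11 libraries in both and 2 below. Most of that list are long genes, such as Ppargc1a (6641 bases) and Nrf1 (10282). All tested genes above 4000 bases had medians of -0.41 in D and -0.59 in E, so these low values are not particular to the list. Ppargc1a, the coactivator of respiratory genes, was at 4.34 to 21.7 CPM in the 11 libraries, 6.18 in D and 4.39 in E, and Nrf1, whose motif is capitalised in the promoters, at 12.95 to 21.6, 10.9 and 11.9. In the male comparison of levels, 0 genes of any of these mitochondrial or ribosomal groups passed the adjusted threshold in edgeR, with medians of 0.96 for the cytosolic ribosomal list, 0.86 for the mitochondrial ribosomal list and 0.05 for the citric acid cycle; unadjusted, 52 of 81, 51 of 75 and 5 of 17 had a p under 0.05 (background 25.3%). DESeq2 called 15 of 74 cytosolic ribosomal, 12 of 74 mitochondrial ribosomal and 1 of 17 citric acid cycle genes as higher, and 0, 0 and 0 as lower. It called 7.53% of all genes with an adjusted p in either direction. Mitochondrial carriers and membrane proteins (18 tested) were split, with medians of 0.09 in D and 1.02 in E. Of the 18 genes, 8 were above all 11 libraries in both and 6 were below. Cytochrome c and its partners lay between, with 0.36 in D and 1.01 in E. There 2 of 8 genes were above all 11 libraries in both and 1 was below.

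Gene length moved with the same libraries. Across 15406 genes the library difference correlated with log2 length at r = -0.47 in D and -0.50 in E, and between -0.18 and 0.21 elsewhere, and tested nuclear members are short, with a median of 1304.5 bases against 3569.5 for all tested genes. Among genes up to 1000 bases the median difference was 0.81 (all genes) and 1.77 (32 members) in D, and 0.84 and 1.44 in E. For genes of 2000 to 4000 bases it was 0.01 and 1.23 (19 members) in D, and 0.16 and 1.34 in E, while the 13 citric acid cycle genes of that length had -0.31 and 0.07. The 7 members above 4000 bases had 0.81 in D and 1.43 in E, where all genes of that length had -0.41 and -0.59. Length here is that in the count files. The coding transcripts of these 7 members ran from 455 (Ndufb2) to 2590 bases (Ndufs1), so they are not all long mRNAs. Ndufs1 was at -0.74 in D and -0.53 in E. With a length offset in the fit, the nuclear median of the male comparison of levels was 0.41 in place of 0.96.

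**Figure D5:**
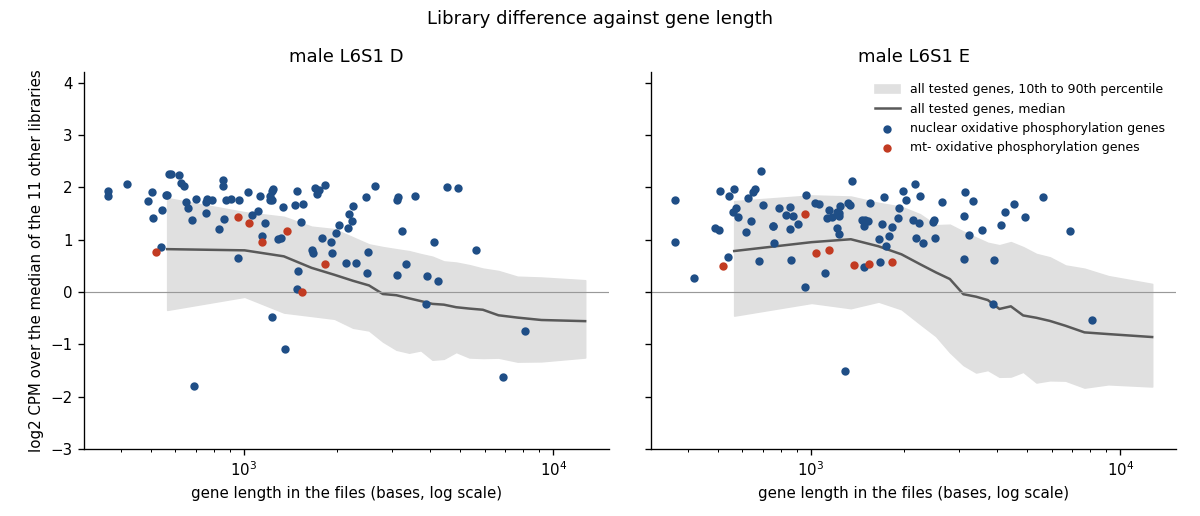
Log2 difference of male L6S1 D (left) and E (right) from the median of the 11 other libraries (y axis) against gene length in bases (x axis, log scale). The line and band are the median and the 10th to 90th percentile of all tested genes in 20 bins of length, blue points are the 90 nuclear and red points the 7 mt- genes; most blue points lie above the line.

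Markers of other cell types were summed beside these results. The satellite glia and Schwann list (17 of 18 tested) stood at 3304 to 4848 CPM in the 11 libraries, 4714 in D and 9836 in E. For fibroblasts (7 of 8) the sums were 82.5 to 443 CPM in the 11 libraries, 286 in D and 600.0 in E, mostly Dcn. Endothelial and mural markers (11 of 12) had 178 to 509.9 CPM in the 11 libraries, 257 in D and 199.98 in E. The immune list, of which 4 of 12 genes were tested, had 8.42 to 17.2 CPM in the 11 libraries, 20.0 in D and 26.5 in E, with C1qa at 0 in both. Skeletal muscle genes (2 of 6 tested) summed to 3.75 to 7.11 CPM in the 11 libraries, 17.2 in D and 15.7 in E, with Myh1 at 0 in both, and adipocyte genes (2 of 5) to 4.14 to 19.7 CPM in the 11 libraries, 39.3 in D and 53.5 in E, with Plin1 at 0 in both. Nearly all of the adipocyte sum was Cidea, at 34.2 and 48.4 CPM. C1qa, Myh1 and Plin1 reached at most 0.106, 0.0882 and 0.0729 CPM in the 11 libraries, so their 0 in D and E says little. Myh4 was at 0 in the 11 libraries and in D, and at 0.995 CPM in E. Red blood cell genes (4 of 5) had 0.466 to 10.2 CPM in the 11 libraries, 7.64 in D and 8.25 in E. Muscle, adipocyte and immune sums were thus highest in D and E, on low values, and glial and fibroblast sums in E; their part in the nuclear result was not tested.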

How the data were processed

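The deposited files give per gene a raw count, a CPM and an RPKM. Per the submitters' processing notes, reads were counted with featureCounts 1.4.5 (Subread) on GRCm38.p2, with STAR 2.0.4b and Salmon also named for female libraries; an aligner for male libraries, strand and the handling of reads that fit several places are not stated in the labels or headers. The deposited CPM equals the count over the file's own total, and the deposited RPKM is that value per kilobase, per the file headers' length column; both were recomputed here from the counts with TMM factors. Gene symbols and coordinates come from GENCODE M21 (GRCm38). Genes passing filterByExpr were fitted on all 13 libraries with edgeR 4.0.16 (quasi-likelihood, robust; R 4.3.3, limma 3.58.1), with Benjamini-Hochberg adjustment over all 15406 genes at 0.05; DESeq2 1.42.0 served as an alternative. The procedure was tested on simulated data. Each library is a pool of mice, so p-values measure the spread between pools.

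Deviations from the group means over 15406 genes were correlated between libraries of one sex that share a letter. The r was 0.52, 0.20 and 0.49 for female A, B and C and only 0.10 for male A. The letter was taken as a pairing, and libraries of different letters were not compared in this way. Same-letter pools held unequal numbers of mice in female C (3 at L345, 5 at L6S1) and male A (5 and 9). The pairing is therefore uncertain. A fit with the pairing as a block was run beside the unpaired one. Genes named with values are the 5 of smallest p in each comparison (edgeR called none), all mt- genes, the 2 nuclear genes of highest mean RPKM per complex, the 5 highest and 5 lowest in male L6S1 E against the 11 libraries, isoform groups and members that failed the filter. The genes, lists and rules were chosen with earlier results of these data known. A window counts as shared if its 50 bases occur exactly, on either strand, in a transcript of another gene; the genome sequence was not used here.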

Additional observations from a re-analysis of the deposited data

Results flagged for a closer look

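Within the 4 male L6S1 libraries, Ndufa1 had 461 CPM in D, while A, E and F had 109.7, 131 and 132, so D stood far from the other 3 relative to their whole range. Ndufa1 is a small membrane subunit of complex I on the X chromosome. Of 48 results checked in this way, 1 stood out; chance flags about 1 in 20 groups. The cause was not tested.

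Gm28438, an annotated pseudogene on chromosome 1 outside the named gene set, had 1086 counts over the 13 libraries. Its sequence differs from that of mt-Nd3 by 1 base, and mt-Nd3 itself had 0 counts. Every library held 27 counts or more of it, above the limit of 3 that a count of 0 allows.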

How the results depend on the processing

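With male L6S1 D and E left out, the nuclear median log2 fold change was 0.15 for level in males, 0.34 for male minus female level effects and 0.19 for sex at L6S1, and the mt- median for sex at L6S1 was -0.73. With a gene length offset those 3 nuclear medians were 0.41, 0.43 and 0.43, and with a length and GC offset, chosen after seeing the data, 0.32, 0.39 and 0.37. The length offset also put the mt- median of male minus female level effects at -0.41. Under the replicate block, the nuclear median for level averaged over sexes was -0.12; the block put Ndufs5 at -0.0445 and Cox4i1 at -0.0115, and with length and GC offsets Ndufs3 at -0.0473 and Cox4i1 at -0.0513. The block changed no other call. Nuclear members called were 29 by DESeq2 and 10 without the low-count filter for level in males, and 39 and 10 for sex at L6S1. Leaving out 1 library at a time gave 0 to 57 calls for level in males and 0 to 63 for sex at L6S1, the highest without male L6S1 A. With library totals in place of TMM factors, the nuclear median of male L6S1 E was 1.01 log2 units above the other libraries. The causes were not tested. Of the values that answer a comparison, 493 settings left the call and direction in place and 19 moved the value. Few libraries per group, a spread of pools and 6 mt- genes with 6 counts or fewer limit what can be resolved.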
